A study of Arabidopsis thaliana with 5 samples.

Results

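The transcripts of the chloroplast and mitochondrial genomes were followed in developing Arabidopsis thaliana seeds of wild type Col-0 and of dof4.1-3, a mutant with a T-DNA in the second exon of the Dof-type transcription factor gene DOF4.1 (AT4G00940). Rows of the count table whose gene ID starts with ATCG (chloroplast) or ATMG (mitochondrion) were taken when their counts summed to at least 10 over the 5 libraries. This gave 96 of 133 chloroplast rows and 50 of 152 mitochondrial rows, 146 of the 37336 genes in the table. All seeds were collected 9 days after pollination according to the sample labels, which write the mutant dof4-1. RNA-seq was run on 2 Col-0 and 3 dof4.1-3 libraries, with reads counted per gene without regard to strand. The mutant is represented by 1 allele, and neither labels nor paper say whether the libraries of a genotype came from separate plants, so the p-values below cover the variation among these 5 libraries alone, and this could be technical.

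Plastids and mitochondria keep small genomes of bacterial origin. The plastid genome encodes core subunits of the photosystems, the cytochrome b6f complex, the ATP synthase, an NDH complex, the large subunit of Rubisco, plastid ribosome components and the core of the plastid-encoded RNA polymerase, and the mitochondrial genome encodes subunits of the respiratory complexes and of the mitochondrial ribosome. Most other proteins of both organelles come from nuclear genes, among them the sigma factors that bring the plastid-encoded polymerase to its promoters and the phage-type polymerases that transcribe in both organelles. Embryos of Arabidopsis are green during seed filling, with plastids that carry out photosynthesis, and mature RNAs of both organelles mostly lack a long stable poly(A) tail. Whether the libraries were made from poly(A) RNA is not given in the sources used here, and shares of counts below describe these libraries rather than the RNA of the cell.

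Library sizes were 16500028 and 17049283 gene counts in Col-0, against 20101091 to 21722055 in dof4.1-3. DOF4.1 had 1 and 14 counts in Col-0, against 3, 4 and 4 in dof4.1-3, too few for a test or for a check of the labels. The summed level of 6 seed markers (3 cruciferins, 2 napins and 1 oleosin, all detected) was 81219 and 43520 CPM (counts scaled to a common library size with TMM factors) in Col-0, and 105227, 255141 and 172478 CPM in dof4.1-3. Silique wall markers (4 of 4 detected) summed to 43.4 to 44.8 CPM in Col-0, against 27.7 to 34.3 CPM in dof4.1-3, and pollen markers (3 of 3 detected) to 13.0 to 28.8 and 3.53 to 14.5 CPM. The paper reports higher cruciferin and napin transcripts in the mutant. The seed marker sum holds genes of both classes, so it is no marker of seed content or stage apart from genotype. Whether seed content or stage differed was not tested. The part of these marker levels in the results on organelle genes was not tested.

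Detection differed between the genomes. In the chloroplast, 23 rows had 0 counts and 14 had 1 to 9, the lowest member was ATCG00250 with 11 counts, and the highest row left out was ATCG00260 with 7. For the mitochondrion 81 rows had 0 counts and 21 had 1 to 9, the lowest member was ATMG00380 with 10 counts and the highest row left out ATMG09740 with 9. A count in every library was found for 95 of 96 chloroplast and 45 of 50 mitochondrial members, and the median member had 892.5 and 79.5 counts over the 5 libraries. After the filter on low counts, 92 chloroplast and 35 mitochondrial members were tested among 19003 genes, and the untested members had 11 to 38 and 10 to 37 counts.

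Rows under 10 counts lay together in ID order. The chloroplast had 10 neighbouring rows under 10 counts from ATCG00830 to ATCG00910 and 10 from ATCG01220 to ATCG01310, and the mitochondrion 22 from ATMG00170 to ATMG00370 and 23 from ATMG00820 to ATMG01040. In the TAIR10.1 sequence, 34.0% of the 50-base stretches of the chloroplast genome (50 bases is the read length) occurred more than once within that genome, and 70.6% of those of the mitochondrial genome occurred also in the nuclear chromosomes, 70.4% in chromosome 2. Mitochondrial rows that the TAIR10.1 annotation names as the best match or the source of a nuclear locus were members in 7 of 53 cases (13.2%), the other rows in 43 of 99 (43.4%). The line of the table for alignments that were not unique held 0 reads in all libraries. The part of repeated sequence in the empty rows was not tested.

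The reference tables used here pair few of these IDs with a product, and genes are given by ID where no annotation names them. Named chloroplast members were ATCG00430 (photosystem II reaction center protein G in the annotation, in a note placed at the nuclear AT5G11770, a subunit of mitochondrial complex I), ATCG00530 (a CemA-like proton extrusion protein), ATCG00660 (ribosomal protein L20) and ATCG00670 (the plastid-encoded CLP P, catalytic subunit of the stromal Clp protease). Among mitochondrial members ATMG01090 was named as ATP synthase 9, which forms the rotating ring of the ATP synthase, ATMG00560 as an OB-fold nucleic acid-binding protein and ATMG01110 as a mitovirus-type RNA-dependent RNA polymerase. ATMG00560 had 25 and ATMG01110 had 10 counts in all, and they were not tested. For ATCG00430 the note sets a photosystem II name at a complex I gene, and whether that name is right was not checked.

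Both genomes together took 0.633% to 1.25% of the gene counts. Chloroplast genes took 0.553% and 0.519% of gene counts in Col-0, against 0.432%, 0.346% and 0.518% in dof4.1-3, so that every dof4.1-3 library was below both Col-0 libraries, the last by less than the 95% Wilson intervals of the shares (0.515% to 0.522% in Col-0 replicate 2 and 0.515% to 0.521% in dof4.1-3 replicate 3). Means were 0.536% ± 0.0244 (SD, n = 2) and 0.432% ± 0.0863 (SD, n = 3), 0.806-fold in dof4.1-3. On the TMM scale, which corrects for the large share that a few genes take in some libraries, the chloroplast sums were 5630 and 4334 CPM in Col-0, against 3952, 4074 and 5669 CPM in dof4.1-3, the groups overlapped, and the ratio of the means was 0.916. With the 50 most abundant genes left out of the denominator, the ratio of the chloroplast shares was 0.929. Groups of 2 and 3 libraries allow no two-sided exact permutation p below 0.1, and the sums were not tested. Intervals cover counting error only. Fewer organelles or cells of a type and less organelle RNA per cell cannot be told apart in RNA of whole seeds.

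Mitochondrial genes took 0.700% of gene counts in Col-0 replicate 1, 0.307% in Col-0 replicate 2, and 0.328%, 0.287% and 0.294% in dof4.1-3. Col-0 replicate 1 stood alone and the other 4 libraries lay within a narrow range. The means, 0.503% ± 0.278 (SD, n = 2) and 0.303% ± 0.0220 (SD, n = 3), differed by less than the spread between the Col-0 libraries, and their ratio of 0.602 became 0.988 without Col-0 replicate 1. On the TMM scale the mitochondrial sums were 7124 and 2562 CPM in Col-0, against 3004, 3382 and 3214 CPM in dof4.1-3. The groups overlapped, and the ratio of the means was 0.661. With Col-0 replicate 2 as the only Col-0 library the ratio was 1.25, so its direction on that scale rested on Col-0 replicate 1.

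**Figure D1:**
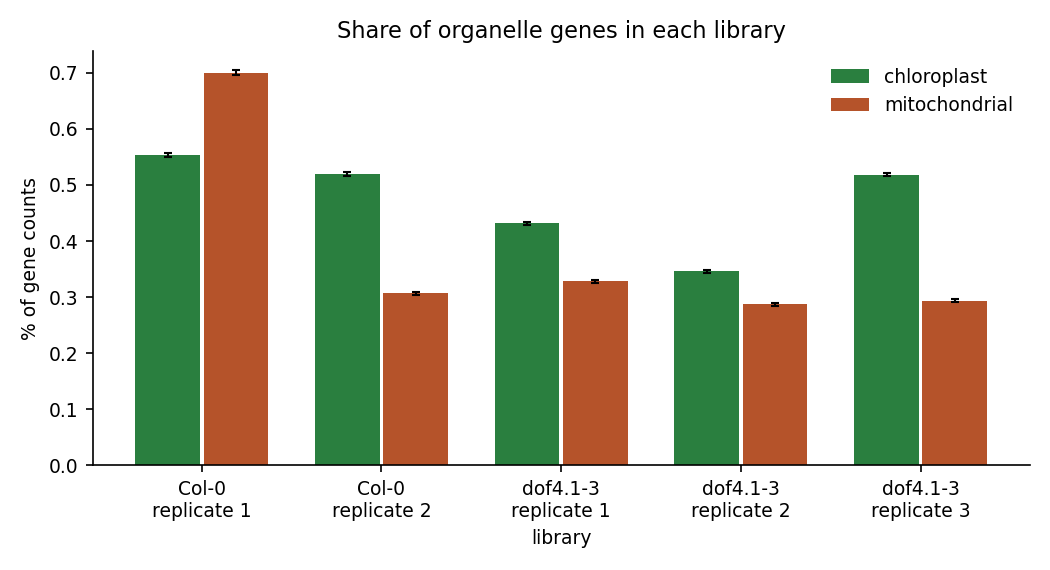
Percent of all gene counts (y axis, from 0) that fell on the 96 chloroplast (green) and 50 mitochondrial (brown) genes in each library (x axis), with 95% Wilson intervals as error bars. The mitochondrial bar of Col-0 replicate 1 (0.700%) stands above the other 4 (0.287% to 0.328%), while the chloroplast bars run from 0.346% to 0.553%.

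Set against each other within a library, which needs no scaling to nuclear genes, chloroplast counts were 0.790 and 1.69 times the mitochondrial counts in Col-0, against 1.32, 1.20 and 1.76 times in dof4.1-3. Mitochondrial counts were the larger in Col-0 replicate 1, and chloroplast counts in the other 4 libraries. Rows of ribosomal RNA were not told apart from other rows in either genome. The ratio is thus of total counts and not of like RNA classes. The means of 1.24 ± 0.637 (SD, n = 2) and 1.43 ± 0.296 (SD, n = 3) differed by less than the spread of the Col-0 libraries.

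The mitochondrial total rested on few rows. ATMG00020, ATMG01390 and ATMG00030 held 240898, 69395 and 32848 of the counts of the 5 libraries, together 97.0% and 96.7% of mitochondrial counts in Col-0, against 96.9%, 93.8% and 94.0% in dof4.1-3. The top 3 chloroplast rows held 26.6% to 40.8% and the top 10 held 63.0% to 70.8% of chloroplast counts. Without the 3 large rows, the mitochondrial share was 0.0210% and 0.0101% in Col-0, against 0.0101%, 0.0177% and 0.0177% in dof4.1-3, the ratio of the group means was 0.974, and chloroplast counts were 26.3 and 51.2 times the mitochondrial counts in Col-0, against 42.7, 19.5 and 29.4 times in dof4.1-3. Here Col-0 replicate 2 and dof4.1-3 replicate 1 had the low shares and the other 3 libraries the high ones.

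ATMG00020, the organelle row with the most counts, was at 5002 and 1783 CPM in Col-0 and at 2009, 2157 and 2053 CPM in dof4.1-3. Col-0 replicate 1 stood above the rest, and the groups overlapped, with a log2 fold change of -0.71 (SE 0.39) and an adjusted p of 0.413 in edgeR's quasi-likelihood test. ATMG01390 was at 1267 and 437 CPM in Col-0 and at 677, 666 and 664 CPM in dof4.1-3 (log2 fold change -0.35, SE 0.38, adjusted p = 0.690). ATMG00030, again with Col-0 replicate 1 above the rest, was at 641 and 257 CPM in Col-0 and at 224, 349 and 304 CPM in dof4.1-3 (log2 fold change -0.62, SE 0.36, adjusted p = 0.447). Without Col-0 replicate 1 the log2 fold changes of ATMG00020, ATMG01390 and ATMG00030 turned to 0.22, 0.62 and 0.19, so that their direction rested on that library. Within a library the ratio of ATMG00020 to ATMG01390 counts was 3.95 and 4.08 in Col-0, against 2.97, 3.24 and 3.09 in dof4.1-3. These ratios did not overlap between the genotypes, and they were picked after the values were seen and were not tested. The ratio of ATMG00020 to ATMG00030 counts did overlap, at 7.80 and 6.94 in Col-0, against 8.95, 6.17 and 6.76 in dof4.1-3.

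Mitochondrial genes shared 1 order of the libraries that did not follow genotype. In 32 of the 35 tested genes (91.4%) Col-0 replicate 2 and dof4.1-3 replicate 1 were both below the other 3 libraries, against 9.67% of all 19003 tested genes and 13 of 92 (14.1%) chloroplast genes. The exceptions were ATMG00080, ATMG00090 and ATMG01390. The median over the 35 genes of log2(CPM + 0.5), taken from the mean of each gene over the libraries, was 0.40 and -0.54 in Col-0, against -0.47, 0.35 and 0.34 in dof4.1-3, where the median over all tested genes lay between -0.01 and 0.01. This order was seen in the data and then counted in the same data, and the genes of 1 library are not independent of each other. The seed, silique wall and pollen marker sums above did not have it.

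**Figure D2:**
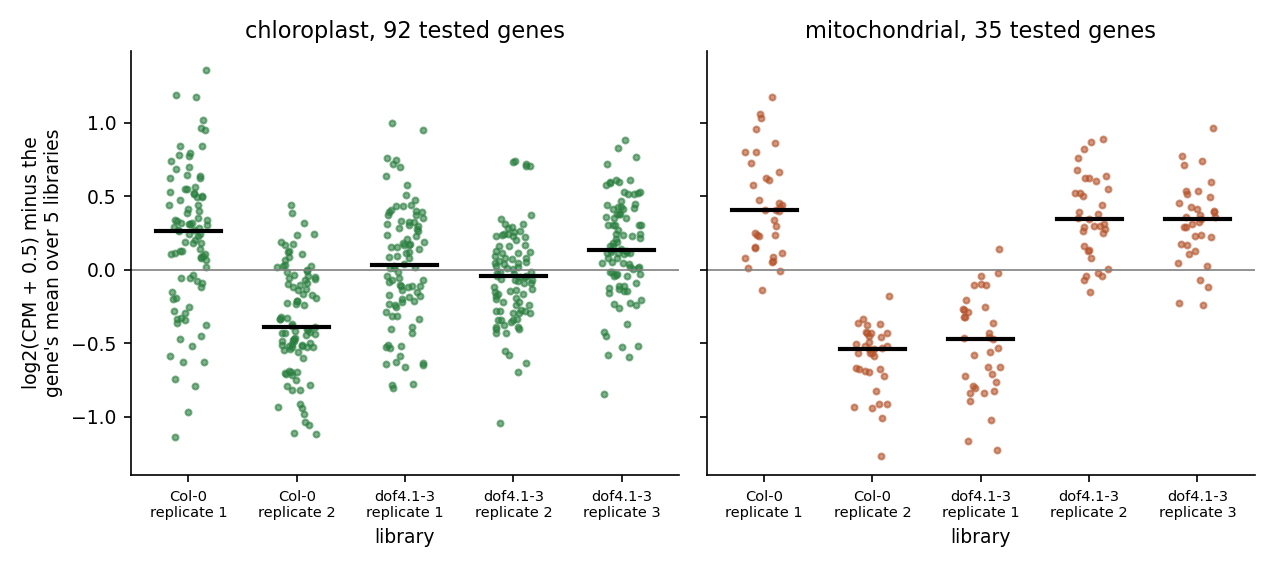
Each point is a tested gene, plotted by library (x axis) as log2(CPM + 0.5) minus the mean of that gene over the 5 libraries (y axis), with the median as a black bar, for chloroplast (left) and mitochondrial genes (right). The mitochondrial medians of Col-0 replicate 2 (-0.54) and dof4.1-3 replicate 1 (-0.47) lie below 0 and those of the other libraries above it (0.34 to 0.40), while the lowest chloroplast median is that of Col-0 replicate 2 (-0.39).

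Mid-level mitochondrial rows showed this order plainly. ATMG01360 was at 26.5 and 10.6 CPM in Col-0 and at 13.8, 29.4 and 22.7 CPM in dof4.1-3, and ATMG01370 at 25.4 and 8.57 CPM and at 10.02, 29.0 and 21.3 CPM. In ATMG00690 the levels were 29.2 and 9.65 CPM in Col-0, against 6.65, 18.4 and 15.4 CPM in dof4.1-3. The range within a genotype was wider than the difference between genotypes in all of them, with log2 fold changes of 0.25 (SE 0.43), 0.25 (SE 0.56) and -0.52 (SE 0.55). Without Col-0 replicate 1 the change of ATMG00690 was 0.49, and without Col-0 replicate 2 those of ATMG01360 and ATMG01370 were -0.27 and -0.34, each of the opposite sign. ATMG00660, ATMG00670 and ATMG01380 had log2 fold changes of 0.22, 0.02 and -0.08.

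No mitochondrial gene passed an adjusted p of 0.05 in edgeR's quasi-likelihood test. The counts were 0 of 35 in either direction, where 0.121% of all tested genes were called higher and 0.963% called lower in dof4.1-3, and 0 of 35 had an unadjusted p under 0.05 in either direction (6.33% higher and 9.52% lower over all tested genes). DESeq2 also called 0. Of the 35 genes, 25 had a positive and 10 a negative log2 fold change (71.4% positive, 52.6% over all tested genes), with a median of 0.25 against 0.03 over all tested genes and a median SE of 0.56. Leaving out Col-0 replicate 1 gave a median of 1.09 and leaving out Col-0 replicate 2 one of -0.27, and leaving out dof4.1-3 replicate 2 or 3 gave -0.01 and -0.06, so that its sign rested on single libraries.

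The change with the smallest adjusted p was that of ATMG00650, at 1.67 and 0.392 CPM in Col-0 and at 1.503, 3.47 and 2.44 CPM in dof4.1-3 (log2 fold change 1.29, SE 0.60, adjusted p = 0.341). It was 2.64 without Col-0 replicate 1 and 0.56 without Col-0 replicate 2. ATMG00090 was the 1 mitochondrial gene with every dof4.1-3 library above both Col-0 libraries (2.86% of the 35, 16.3% of all tested genes), at 13.1 and 6.08 CPM in Col-0 and at 13.3, 14.4 and 16.4 CPM in dof4.1-3, with 13.1 and 13.3 CPM nearly touching. No mitochondrial gene (0 of 35, 18.3% of all tested genes) had every dof4.1-3 library below both Col-0 libraries. The log2 fold change of ATMG00090 was 0.63 (SE 0.31, adjusted p = 0.362), and 1.14 (adjusted p = 0.0456) when mitochondrial genes were scaled to the mitochondrial counts, 97.0% of which were from the 3 large rows in Col-0 replicate 1. ATMG00070 and ATMG00130 had log2 fold changes of 0.67 (SE 0.42) and 0.74 (SE 0.57). The ATP synthase 9 row ATMG01090 was at 1.42 and 0.245 CPM in Col-0 and at 0.137, 1.09 and 0.623 CPM in dof4.1-3 (log2 fold change -0.42, SE 0.87). In the mitochondrial atp9 gene of TAIR10.1, 0% of the 50-base stretches occurred once in the genome.

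Among chloroplast genes, 1 of 92 passed the test, ATCG01020, lower in dof4.1-3, where 0.963% of all tested genes were called lower. It was at 564 and 378 CPM in Col-0 and at 178.8, 227 and 194 CPM in dof4.1-3. All dof4.1-3 libraries were below both Col-0 libraries, and the means were 471 ± 132 CPM (SD, n = 2) and 199.9 ± 24.6 CPM (SD, n = 3), a 0.424-fold level with a log2 fold change of -1.24 (SE 0.24, adjusted p = 0.0467 in edgeR's quasi-likelihood test). Within the chloroplast counts alone ATCG01020 took 10.02% and 8.72% in Col-0, against 4.52%, 5.57% and 3.42% in dof4.1-3, so the groups were apart on that scale too, but the gene was not called in the fit scaled to chloroplast counts (log2 fold change -1.06, adjusted p = 0.0806). The call lay at the threshold. It was lost with RLE factors or with TMM factors that left out organelle genes and the 50 most abundant genes (adjusted p = 0.0506 in both). Adding replicate number as a block also lost it (adjusted p = 0.139). It was kept by DESeq2 (adjusted p = 9.22e-05), and in edgeR with no filter (adjusted p = 0.0464) and without dof4.1-3 replicate 2 (adjusted p = 0.0187). It was also lost without Col-0 replicate 1 (log2 fold change -0.91, adjusted p = 0.512), Col-0 replicate 2 (-1.50, adjusted p = 0.240), dof4.1-3 replicate 1 (-1.16, adjusted p = 0.0551) or dof4.1-3 replicate 3 (-1.21, adjusted p = 0.149), and the sign stayed negative in each.

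**Figure D3:**
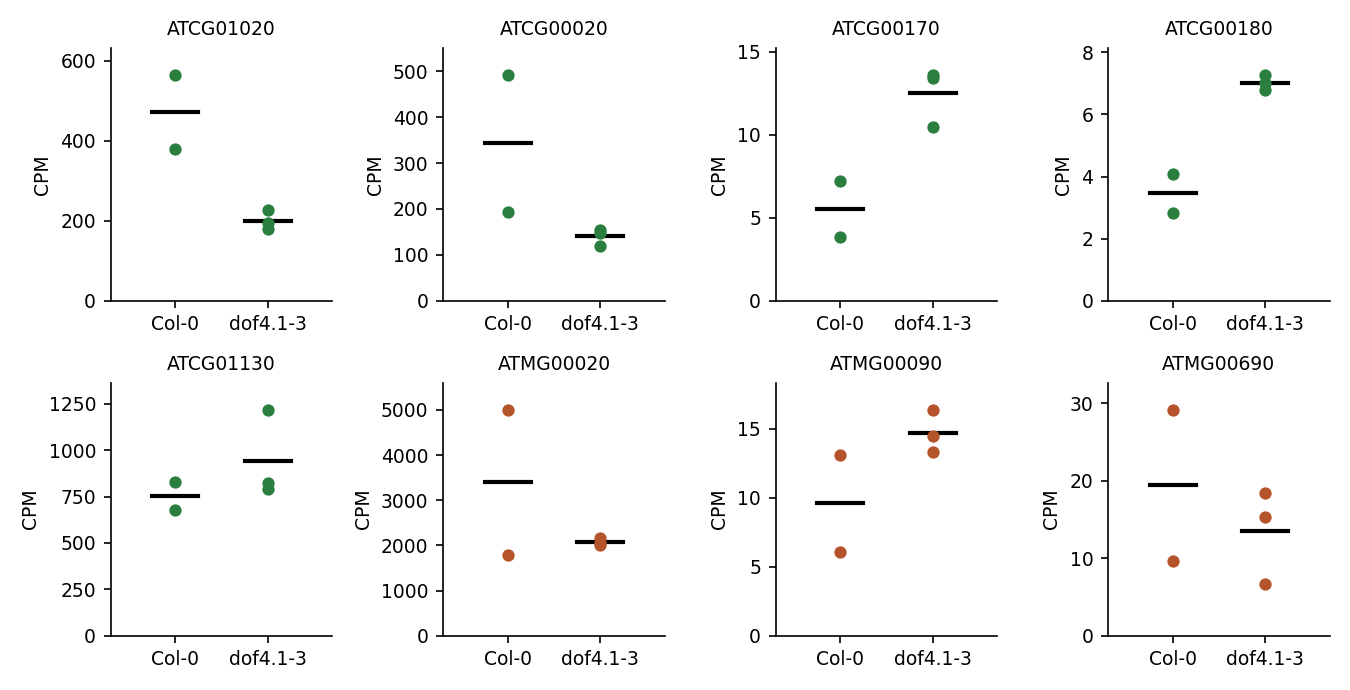
Level in CPM (y axis of each panel, linear and from 0) of 5 chloroplast (green) and 3 mitochondrial (brown) genes in Col-0 and dof4.1-3, 1 point per library and the mean as a bar. ATCG01020 and ATCG00020 lie lower and ATCG00170 and ATCG00180 higher in all 3 dof4.1-3 libraries, and the Col-0 mean of ATMG00020 includes 1 library at 5002 CPM.

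A further 3 genes were called by DESeq2 but not by edgeR. ATCG00020 was at 492 and 194 CPM in Col-0 and at 153.8, 118 and 148 CPM in dof4.1-3, below both Col-0 libraries, the higher of which was far from the other (log2 fold change -1.29, SE 0.35, edgeR adjusted p = 0.120, DESeq2 adjusted p = 0.0102). Without Col-0 replicate 1 its log2 fold change was -0.46. ATCG00170 was at 7.215 and 3.82 CPM in Col-0 and at 13.4, 10.5 and 13.6 CPM in dof4.1-3, above both Col-0 libraries (log2 fold change 1.19, SE 0.30, edgeR adjusted p = 0.0946, DESeq2 adjusted p = 0.0180). The neighbouring ID ATCG00180 was at 4.07 and 2.84 CPM in Col-0 and at 6.79, 6.998 and 7.27 CPM in dof4.1-3 (log2 fold change 1.03, SE 0.27, edgeR adjusted p = 0.106). It was named because DESeq2 called it. With these and ATCG01020 DESeq2 called 2 chloroplast genes higher and 2 lower, against 1.27% and 3.04% of all genes it tested.

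ATCG00660, the ribosomal protein L20 of the large plastid ribosomal subunit, had small counts and tight groups. It was at 1.91 and 1.57 CPM in Col-0 and at 4.01, 3.63 and 3.95 CPM in dof4.1-3, a 2.22-fold level (log2 fold change 1.15, SE 0.31, adjusted p = 0.114). ATCG00670, the CLP P gene, was at 52.9 and 28.8 CPM and at 32.5, 43.6 and 41.1 CPM, and ATCG00530, the CemA-like gene, at 23.4 and 17.1 CPM and at 21.5, 18.2 and 19.6 CPM. Neither separated the genotypes, with log2 fold changes of -0.06 (SE 0.27) and -0.03 (SE 0.21). ATCG00430 was at 178.5 and 114 CPM in Col-0 and at 66.6, 80.4 and 113 CPM in dof4.1-3, all below Col-0 but the last by little (log2 fold change -0.75, SE 0.28, adjusted p = 0.227). For the rpl20, clpP and cemA genes of the TAIR10.1 chloroplast 100% of 50-base stretches were single, and for both copies of rpl2 0% were; ATCG01310, named as ribosomal protein L2, had 4 counts and was no member.

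ATCG01130, the chloroplast row with the most counts, was at 677 and 831 CPM in Col-0 and at 788, 822 and 1219 CPM in dof4.1-3 (log2 fold change 0.32, SE 0.28, adjusted p = 0.600). Within chloroplast counts it took 12.0% and 19.2% in Col-0, against 19.95%, 20.2% and 21.5% in dof4.1-3, with Col-0 replicate 1 the low library. ATCG01130 had 1.20 and 2.20 times the counts of ATCG01020 in Col-0, against 4.41, 3.62 and 6.28 times in dof4.1-3. These ratios within a library did not overlap, and they were formed after ATCG01020 had been singled out, with no test. Ratios of ATCG00480 to ATCG00470 (1.60 and 1.76 in Col-0, against 2.02, 2.03 and 1.71 in dof4.1-3) overlapped. So did those of ATCG01130 to ATMG00020 (0.135 and 0.466 in Col-0, against 0.392, 0.381 and 0.594 in dof4.1-3). ATCG00480 and ATCG00470 had the groups overlapping, at 581 and 453 CPM in Col-0, against 301, 413 and 671 CPM in dof4.1-3 for ATCG00480, and log2 fold changes of -0.16 (SE 0.33) and -0.32 (SE 0.38). ATCG00790, ATCG00800, ATCG00270 and ATCG00280 had log2 fold changes of 0.20, 0.37, -0.16 and 0.03, each smaller than its SE of 0.25 to 0.41.

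ATCG00220 was at 393 and 218 CPM in Col-0 and at 189, 196 and 160.3 CPM in dof4.1-3, below both Col-0 libraries (log2 fold change -0.75, SE 0.27, adjusted p = 0.216). At low level, ATCG01070 was at 1.60 and 1.18 CPM in Col-0 and at 4.74, 2.39 and 2.23 CPM in dof4.1-3 (log2 fold change 1.18, SE 0.44, adjusted p = 0.234), and ATCG01180 at 3.08 and 1.13 CPM and at 0.866, 0.271 and 1.14 CPM (log2 fold change -1.44, SE 0.61, adjusted p = 0.289). ATCG01070 separated the genotypes and ATCG01180 did not.

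Over the 92 tested chloroplast genes, 53 log2 fold changes were positive and 39 negative (57.6% positive, 52.6% over all tested genes), with a median of 0.18 and a median SE of 0.33. An unadjusted p under 0.05 was reached by 11 higher and 7 lower genes (6.33% and 9.52% of all tested genes). Every dof4.1-3 library was above both Col-0 libraries for 16 genes (17.4%, 16.3% over all tested genes) and below both for 7 (7.61%, 18.3% over all tested genes). The share above was near the background and the share below was under it. The median became 0.48 without Col-0 replicate 1, -0.20 without Col-0 replicate 2, and it was -0.01 when dof4.1-3 replicate 3 was left out. Col-0 replicate 2 was the lowest library for 48 genes (52.2%, 15.0% over all tested genes) and Col-0 replicate 1 the highest for 39 (42.4%, 24.5% over all tested genes), and thus the Col-0 libraries lay on opposite sides.

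In ID order the chloroplast changes came in runs of 1 sign. From ATCG00390 to ATCG00450 all 7 tested genes were negative, with log2 fold changes of -0.75 to -0.25 and a median of -0.61, from ATCG00740 to ATCG00820 all 9 were positive (0.20 to 0.79, median 0.37), and from ATCG01040 to ATCG01130 all 10 were positive (0.21 to 1.18, median 0.67). The called ATCG01020 stood next to the last of these runs. ATCG00390 in the first run was at 32.7 and 32.3 CPM in Col-0 and at 13.9, 21.5 and 28.7 CPM in dof4.1-3, and ATCG00420 at 52.4 and 36.9 CPM and at 19.4, 34.3 and 34.2 CPM. The first run held whichever library was left out, but the second had 6 of 9 positive without Col-0 replicate 1 and 5 of 9 without dof4.1-3 replicate 3, and the third had 7 of 10 without Col-0 replicate 2. Runs were looked for after the fit and have no test. Neighbouring plastid genes are often transcribed together, reads of overlapping genes cannot be assigned by a count without strand, and positions of the IDs were not used here.

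**Figure D4:**
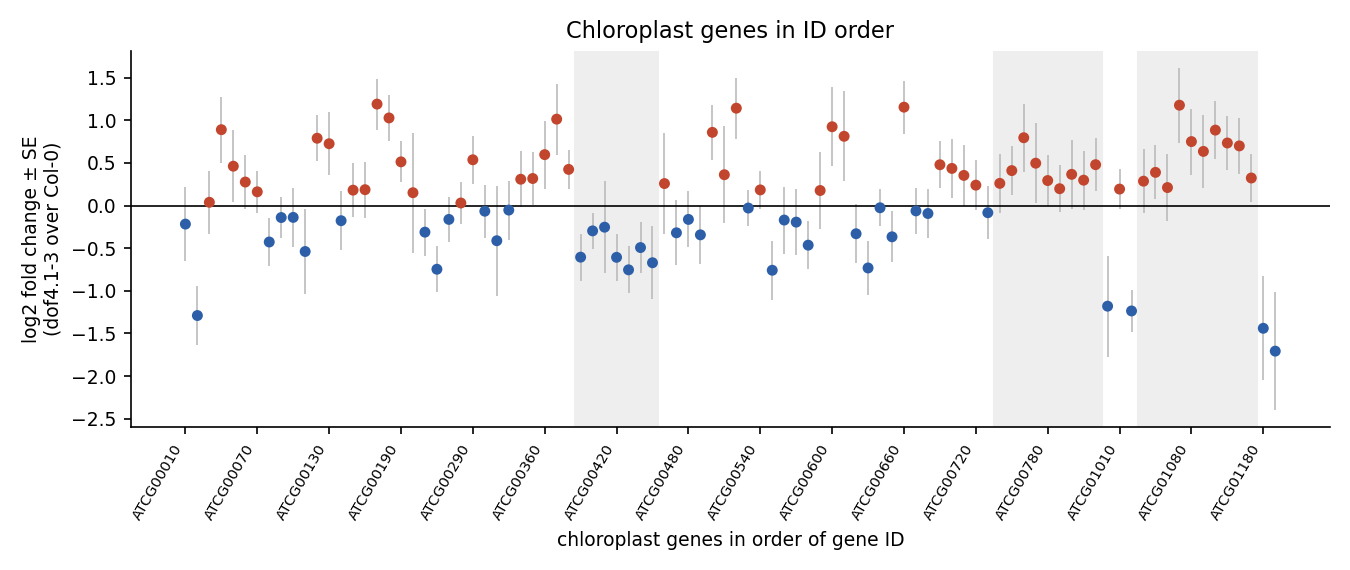
Log2 fold change, dof4.1-3 over Col-0, with its SE (y axis) of the 92 tested chloroplast genes in order of gene ID (x axis, 1 step per gene and not to scale along the genome), red above and blue below 0. Grey bands mark the runs of 7, 9 and 10 genes of 1 sign, of which the last 2 fall to 5 of 9 and 7 of 10 positive when single libraries are left out.

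In both genomes the median change was lower among abundant than among scarce rows, which was counted with no test. Chloroplast genes averaging 100 CPM or more were positive in 6 and negative in 8 cases (median log2 fold change -0.16), those of 10 to under 100 CPM in 17 and 14 (median 0.18), and those under 10 CPM in 30 and 17 (median 0.26). Mitochondrial genes of at least 100 CPM, the 3 large rows, were all negative (median -0.62), those of 10 to under 100 CPM positive in 4 and negative in 2 cases (median 0.23), and those under 10 CPM in 21 and 5 (median 0.29). Over all tested genes the medians of the same classes were 0.01, 0.03 and 0.02. Leaving out Col-0 replicate 1 turned the 3 large mitochondrial rows positive (median 0.22, with 1.20 under 10 CPM), and leaving out Col-0 replicate 2 turned the median under 10 CPM negative in both genomes (-0.09 in the chloroplast and -0.23 in the mitochondrion). Among genes of 10 to under 100 CPM the mitochondrial median was -0.06 without dof4.1-3 replicate 2, and the chloroplast median -0.02 without dof4.1-3 replicate 3. The signs thus rested on single libraries. The median of the genes of at least 100 CPM was below that of the genes under 10 CPM in both genomes whichever library was left out.

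**Figure D5:**
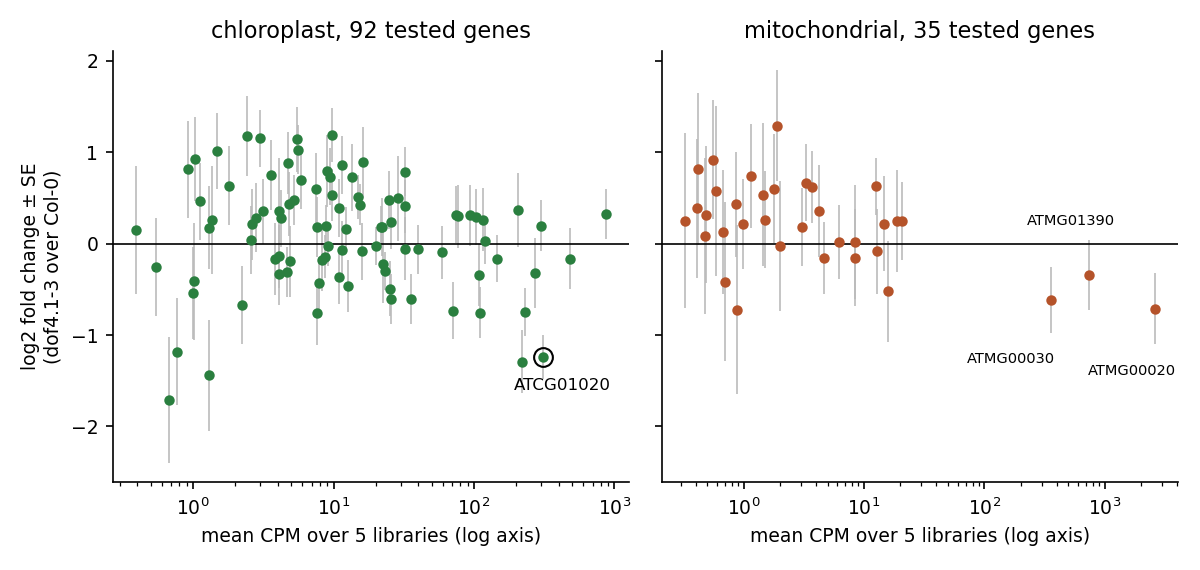
Log2 fold change, dof4.1-3 over Col-0, with its SE (y axis) against the mean CPM over 5 libraries (x axis, log scale) for 92 chloroplast (left) and 35 mitochondrial (right) tested genes. The circled gene, ATCG01020 at -1.24, passed an adjusted p of 0.05, and the 3 mitochondrial rows of at least 100 CPM lie between -0.71 and -0.35, and between 0.19 and 0.62 without Col-0 replicate 1.

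The nuclear genes that transcribe the organelle genomes were measured in the same libraries. The list holds 6 sigma factors, 3 phage-type RNA polymerases and 12 proteins associated with the plastid-encoded polymerase (PAP), and all 21 were tested. None passed edgeR's quasi-likelihood test (0 of 21, 1.08% of all tested genes) or DESeq2 (0 of 21), and 1 higher and 1 lower gene had an unadjusted p under 0.05 (6.33% and 9.52% of all tested genes). Of the 21, 15 were positive and 6 negative (52.6% positive over all tested genes), with a median log2 fold change of 0.24 against 0.03 over all tested genes. SIG5, a sigma factor known for its response to light and stress, was at 112 and 90.4 CPM in Col-0 and at 60.5, 86.2 and 58.4 CPM in dof4.1-3, below both Col-0 libraries (log2 fold change -0.56, SE 0.23, adjusted p = 0.270). PAP11 was at 6.85 and 8.13 CPM in Col-0 and at 13.3, 8.95 and 11.4 CPM in dof4.1-3 (log2 fold change 0.58, SE 0.24, adjusted p = 0.286), and SIG4 at 4.44 and 4.07 CPM and at 2.64, 3.20 and 1.25 CPM (log2 fold change -0.85, SE 0.39, adjusted p = 0.330). The polymerases RPOTp, RPOTm and RPOTmp had log2 fold changes of 0.59 (SE 0.38), 0.59 (SE 0.41) and 0.38 (SE 0.40), with overlapping groups.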

How the data were processed

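RNA from seeds was sequenced by the authors as paired 50-base reads, which were trimmed with cutadapt, assessed with FastQC, mapped to TAIR10 with HISAT2, counted with htseq-count without strand and tested with DESeq2. Versions of these tools: not given in the sources used here. Raw counts of 37336 genes in 5 libraries, and 0 other sample columns, make up the deposited table. Its 5 summary lines (3.82% to 5.66% of counts with them) and 9 blank lines were left out. The genotype in the labels set the groups.

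Genes were kept by filterByExpr, scaled with TMM (factors 0.983 and 1.20 in Col-0, and 1.09, 0.849 and 0.915 in the mutant) and tested with edgeR's quasi-likelihood test (edgeR 4.0.16, limma 3.58.1, R 4.3.3; robust, genotype the only term), with Benjamini-Hochberg adjustment over 19003 genes and a threshold of 0.05. The SE is the log2 fold change divided by the square root of F. The script was tested on simulated data. Alternatives were DESeq2 1.42.0, RLE factors, TMM factors without organelle genes and the 50 most abundant, each organelle scaled to its own counts, no filter, a replicate block, each library left out, and other denominators and members for the shares. Depth per library was 16500028 to 21722055 gene counts.

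Named genes are called members, the 10 members of each genome with the highest mean CPM, the 3 largest changes in each direction among genes averaging 1 CPM or more, and the 3 nuclear genes with the smallest p, besides genes named as chosen later. Role lists could not be applied, because no table used here pairs the IDs with symbols; members with a product in a note of the TAIR10.1 annotation are named in their place. Builds of the counts (TAIR10) and of the reference (TAIR10.1) differ, so no coordinates are given, and, because no lengths were paired with the IDs, ratios and ranks between rows are of counts and not of levels per length. The members and lists were chosen with earlier results of these data known. Plots were made in Python 3.11.15 with matplotlib 3.10.9. One gene with a product in a note is not reported here.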

Additional observations from a re-analysis of the deposited data

How the results depend on the processing

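The count of 1 called chloroplast gene was 0 with RLE factors, 0 with TMM factors computed without organelle genes and the 50 most abundant genes (ATCG01020 adjusted p = 0.0506 in both), 4 with DESeq2, and 0 to 4 when 1 library was left out, with 4 without dof4.1-3 replicate 2. When each genome was scaled to its own counts the count was again 1, but the gene was ATCG00170 (log2 fold change 1.36, adjusted p = 0.0464) and ATCG01020 was not called (adjusted p = 0.0806), and 1 mitochondrial gene, ATMG00090, was called. With the replicate block 0 chloroplast and 0 mitochondrial genes were called (ATCG01020 adjusted p = 0.139); labels share only the numbers of 2 pairs, which does not show that libraries were paired. Leaving out 1 library moved the chloroplast median log2 fold change from -0.20 to 0.48, the mitochondrial median from -0.27 to 1.09, the ratio of chloroplast shares from 0.725 to 0.886, that of mitochondrial shares from 0.433 to 0.988, and that of the chloroplast to mitochondrial ratios from 0.844 to 1.81. The mitochondrial ratio was 0.974 without ATMG00020, ATMG00030 and ATMG01390, a setting chosen after seeing the data. The causes were not tested. Nuclear genes for organelle transcription had 0 calls under every alternative run. Not run were removal of a length trend, alone or with the block, leaving out ribosomal and transfer RNA, and a restriction to single-copy stretches, since lengths and classes were not paired with the IDs. The median member had 892.5 counts in the chloroplast and 79.5 in the mitochondrion over the 5 libraries, and the median SE of a log2 fold change was 0.33 and 0.56.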

Other observations

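Nuclear loci that resemble mitochondrial genes were also counted. The TAIR10.1 annotation names 55 nuclear loci, all on chromosome 2, as matches to or pseudogenes of mitochondrial IDs, and 14 of them had at least 10 counts and 32 had 0. Their summed level was 19.1 and 4.80 CPM in Col-0, against 7.20, 17.7 and 15.5 CPM in dof4.1-3, low in the same libraries, Col-0 replicate 2 and dof4.1-3 replicate 1, as the mitochondrial genes. AT2G07698, an ATP synthase subunit 1 by its note, had 29 and 14 counts in Col-0, against 14, 29 and 39 in dof4.1-3, where the mitochondrial row it is matched to, ATMG01190, had 0 counts in all. AT2G07695, a cytochrome c oxidase subunit II-like gene, had 56 and 12 counts in Col-0, against 20, 63 and 47 in dof4.1-3, and its mitochondrial row ATMG01280 had 5. Whether these reads came from the nuclear loci or from the mitochondrion was not tested.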
